A study of Homo sapiens with 16 samples.

Results

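Pigment production in melanocytes takes place in the melanosome, a lysosome-related organelle. The 10 genes described here encode its enzymes, structural proteins and membrane channels or receptors. They are TYR, TYRP1, DCT, PMEL, MLANA, OCA2, SLC45A2, SLC24A5, GPR143 and TRPM1. They were taken by symbol from a fixed list, and each symbol matched 1 Ensembl identifier in both count tables, which hold 60676 identifiers in all.

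Total RNA was sequenced from A101D and MeWo, 2 established lines derived from human melanoma, in 8 libraries each. A101D is a line described as dependent on methionine. MeWo is the methionine-independent counterpart, able to grow when homocysteine replaces methionine. Cells were grown, per the protocol, either with 200 µM methionine as control or with 200 µM homocysteine and no methionine, in both cases with dialyzed serum and added cystine. No label or column header assigns a library to either medium, so the groups compared were the lines and, within each line, the libraries numbered 1-4 and 5-8. A range of replicate numbers has no stated meaning here. Nothing in the labels says that replicates came from separate cultures, so a p-value measures the spread between these libraries, which may be technical. Each line is 1 melanoma-derived line, so a difference between them is a difference between these 2 lines.

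In the pigment pathway, tyrosinase (TYR) oxidizes tyrosine to dopaquinone, the rate-limiting step for all melanin. The related proteins TYRP1 and DCT act on later intermediates of the brown-black pigment, eumelanin. PMEL forms the fibrils on which melanin is laid down, and the channels and exchangers OCA2, SLC45A2 and SLC24A5 set the ion balance and pH of the organelle. In pigment cells, the transcription factor MITF is known to bind E-box sequences near the start sites of many of these genes, with CATGTG as a frequent core.

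Because that hexamer is the known core of the MITF sites in this pathway, it was searched in the promoters, on both strands. RefSeq promoters (GRCh38.p14, 250 bases before to 50 bases after a start site) were matched by symbol for 8 of the 10 genes, with 10 start sites between them. PMEL and SLC45A2 were not matched. CATGTG was found in 7 of the 8 genes at 12 places, all before the start site, and MLANA had none in this window. Over all 35116 promoters of the same length, 11.1% held it. The shares of all promoters count single promoters, whereas a gene counts if any of its start sites holds a match. DCT also had a start site without a match. The longer form TCATGTG, which contains CATGTG, was found in 5 of the 8 genes and in 2.92% of all promoters. The palindromic E-box CACGTG was found in 0 of the 8 genes and in 7.26% of all promoters. These are matches of letters, not measured binding. The match farthest from each start site follows for each of the 7 genes (for TRPM1, that of the start site at which it lay farther away). Each line has 10 bases on either side, is turned so that the motif reads as spelled, and has the hexamer in capitals.
TYR (104 bases before the start, chr11:89177761-89177786, + strand): aaaagtcagtCATGTGcttttcagag
TYRP1 (144 bases before, chr9:12693231-12693256, + strand): ggaagggaatCATGTGctgatcaagt
DCT (215 bases before, chr13:94479882-94479907, + strand): tatctgggctCATGTGctccagccaa
OCA2 (153 bases before, chr15:28099453-28099478, - strand): tgggcggggcCATGTGggcagctttg
SLC24A5 (15 bases before, chr15:48120965-48120990, - strand): taaactggatCATGTGaggagtctcc
GPR143 (61 bases before, chrX:9765893-9765918, + strand): ggggcggcatCATGTGccctgggcct
TRPM1 (56 bases before, chr15:31101766-31101791, + strand): ccatgaggagCATGTGagcacttggg

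The 250 bases before the start site are shown in full for TYRP1 and DCT, paralogs of one enzyme family that differed between the lines in opposite directions. Capitals again mark CATGTG or its reverse complement CACATG, and each window holds 2 matches.
TYRP1 (chr9:12693135-12693384, + strand): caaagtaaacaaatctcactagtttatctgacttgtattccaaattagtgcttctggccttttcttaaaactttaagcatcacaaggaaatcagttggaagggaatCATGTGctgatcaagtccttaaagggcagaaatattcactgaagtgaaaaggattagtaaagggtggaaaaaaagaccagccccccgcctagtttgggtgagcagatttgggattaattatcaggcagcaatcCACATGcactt
DCT (chr13:94479683-94479932, - strand): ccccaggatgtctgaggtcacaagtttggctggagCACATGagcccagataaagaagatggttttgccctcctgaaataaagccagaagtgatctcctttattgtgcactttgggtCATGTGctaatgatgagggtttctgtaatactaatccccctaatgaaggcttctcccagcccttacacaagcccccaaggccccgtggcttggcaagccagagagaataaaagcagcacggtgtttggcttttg

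The counts covered 28910881 to 38961862 per library in A101D and 31217443 to 38722489 in MeWo. Levels are given in CPM, counts in each 1e6 of the library total, after the totals were scaled by trimmed mean of M-values (TMM). Of all identifiers, 19247 passed a filter of about 0.298 CPM in at least 8 libraries. All 10 genes passed, but 3 did so through MeWo. In A101D, TYRP1 reached that level in 7 libraries, OCA2 in 6 and SLC24A5 in 0, and the other 7 genes reached it in all 8. In both lines, 5 of 5 melanocytic marker genes (SOX10, MITF, PAX3, S100B and ERBB3) stood above 1 CPM. Their levels summed to 1785 to 1876 CPM per A101D library and 1405 to 1522 CPM per MeWo library. The higher A101D sums rested on S100B (means of 610 CPM in A101D and 131 CPM in MeWo) and ERBB3 (614 and 264 CPM). MITF (182 and 560 CPM), SOX10 (379 and 459 CPM) and PAX3 (53.2 and 60.1 CPM) were lower in A101D.

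Markers of other cell types differed between the lines as well. The 5 fibroblast markers summed to 583 to 1032 CPM per A101D library, against 75.7 to 85.6 CPM for MeWo, with 3 of 5 above 1 CPM in each line. The sums rested on different genes. COL1A2 had a mean of 778 CPM (A101D) and 0.409 CPM (MeWo), and PDGFRA was also higher in A101D (1.54 and 0.0965 CPM). LUM (1.70 and 73.9 CPM), DCN (0.0587 and 4.18 CPM) and COL1A1 (0.783 and 1.97 CPM) were lower in A101D. The 4 retinal pigment epithelium markers summed to 38.7 to 52.1 CPM per A101D library, against 132 to 197 CPM for MeWo. BEST1 made up nearly all of the latter sum, with means of 30.3 CPM (A101D) and 162 CPM (MeWo). RPE65 (3.83 and 0.0545 CPM) and RLBP1 (12.8 and 0.172 CPM) were higher in A101D, and RRH was low in both lines (0.392 and 0.438 CPM). Leukocyte markers reached at most 2.93 CPM, endothelial markers at most 19.9 CPM and keratinocyte markers at most 42.5 CPM summed, the last mostly KRT10, with KRT1 at 0 counts in A101D. Their part in the differences below was not tested. MeWo replicate 2 had 34471 genes with a count, while the remaining 7 libraries of that line had 30066 to 31433, and no call of a tested gene among the 10 changed without it. In bulk RNA, fewer cells with a transcript and less transcript per cell cannot be told apart.

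Between the lines, 9 of the 10 genes were higher in MeWo and DCT was lower. All but SLC24A5 are given with a test (limma-voom, Benjamini-Hochberg adjusted p below the threshold of 0.05). SLC24A5 entered the test through its MeWo level alone and so had to differ, and no test is given for it. It is counted by direction only. TYRP1 and OCA2 reached the filter level in 7 and 6 A101D libraries and also needed MeWo to pass, so their tests share part of that limit. No library of one line reached the range of the other for any of the 10. The difference was known when the genes were listed. Of all tested genes, 79.0% passed the same test, 38.6% higher and 40.4% lower in MeWo, and 57.7% had no overlap between A101D and MeWo libraries. Against that background, a call by itself says little about these genes, and the size and direction of each difference follow.

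**Figure D1:**
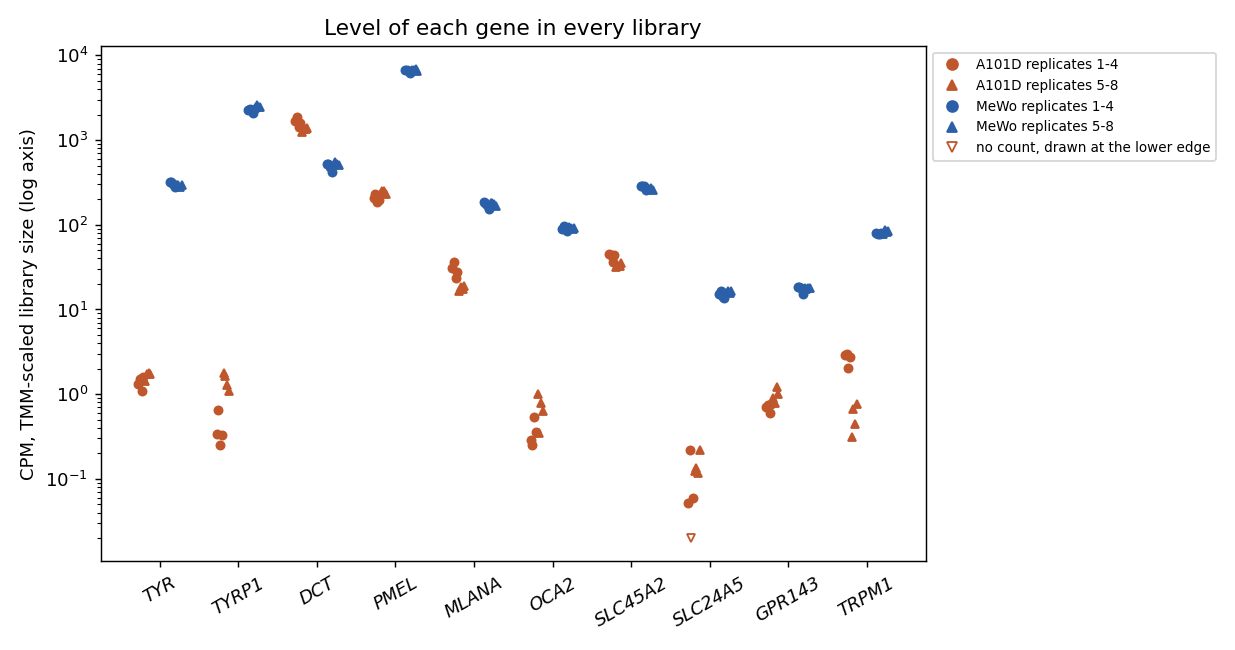
CPM on TMM-scaled library sizes (log axis) of the 10 genes in every library, with A101D in orange, MeWo in blue, circles for replicates 1-4 and triangles for replicates 5-8. The open symbol is the SLC24A5 library with no count, drawn at the lower edge. DCT is the gene whose A101D libraries lie above those of MeWo.

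Among the enzymes, TYR (ENSG00000077498, chr11:89177452-89295759, GENCODE 29 on GRCh38) was low in A101D, with 31 to 65 counts per library. Its level there ran from 1.10 to 1.75 CPM with a median of 1.57. In MeWo it ran from 282 to 317 CPM with a median of 295. The ranges were far apart, and the fold of the mean levels was 196 (log2 difference 7.61 ± 0.08 SE, limma-voom adjusted p = 1.42e-20).

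TYRP1 (ENSG00000107165, chr9:12685439-12710290), which acts late in eumelanin synthesis and stabilizes tyrosinase, had the widest difference of the 10. A101D libraries held 7 to 61 counts, or 0.249 to 1.75 CPM with a median of 0.866. MeWo libraries held 2062 to 2603 CPM with a median of 2375. The ratio of summed counts was 2551, with an exact 95% interval of 2255 to 2897 that covers counting error only. The log2 difference was 11.62 ± 0.28 (SE, limma-voom adjusted p = 1.39e-16). TYRP1 reached the filter level in 7 A101D libraries and needed MeWo to pass, so its p-value is not used as support. Of its exon bases, 2.73% overlap LURAP1L-AS1 on the opposite strand, which itself had 0.656 to 1.54 CPM per A101D library, against 7.59 to 11.3 CPM for MeWo.

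DCT (ENSG00000080166, chr13:94436808-94479682) encodes dopachrome tautomerase, which converts dopachrome to a carboxylated indole precursor of eumelanin. It was the most abundant of the 10 in A101D, at 1255 to 1887 CPM with a median of 1409. In MeWo it stood at 422 to 557 CPM with a median of 513. MeWo was 2.97-fold lower by the mean levels (log2 difference -1.56 ± 0.08 SE, adjusted p = 3.41e-12). A101D thus had high DCT beside traces of TYR and TYRP1.

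Per kilobase of exon, the make-up of the 3 enzymes differed between the lines accordingly. In A101D, DCT was 99.4% to 99.8% of their summed CPM per kb in each library. In MeWo, TYRP1 was 77.8% to 80.3%, TYR was 11.2% to 13.4% and DCT was 7.99% to 8.85%. The shares are taken within a library, so they need no scaling between libraries. They do depend on exon length, taken over all annotated exons of a gene, which can exceed that of a transcript. In CPM, DCT (mean of 504) stood above TYR (298) in MeWo, so their order there depends on that length.

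**Figure D2:**
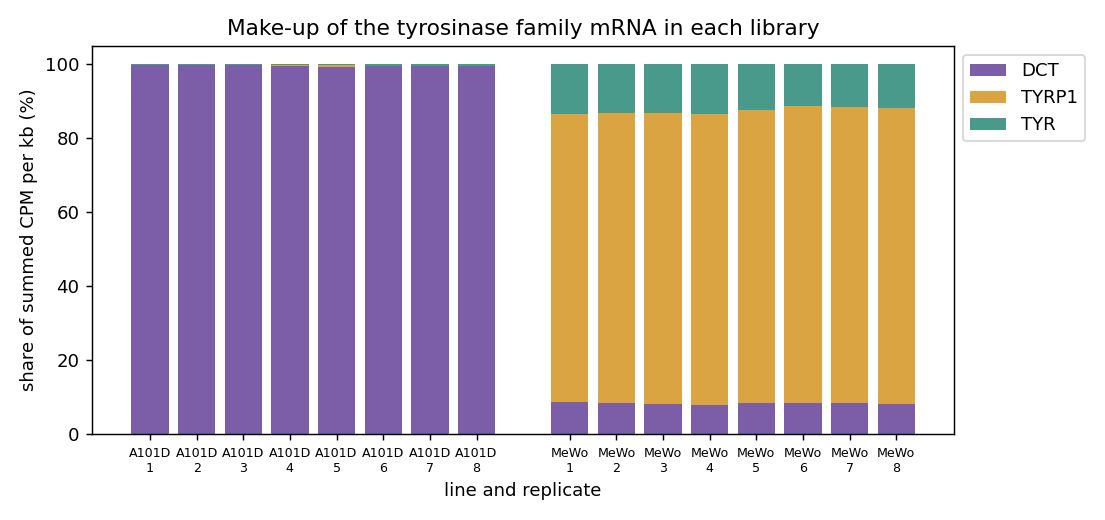
Share of DCT, TYRP1 and TYR in their summed CPM per kb of exon (%), 1 bar per library, A101D left and MeWo right. DCT fills at least 99.4% of every A101D bar, and TYRP1 fills 77.8% to 80.3% of the MeWo bars.

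Of the structural genes, PMEL (ENSG00000185664, chr12:55954105-55973317) was the most abundant of the 10 in MeWo. It ran from 6242 to 6838 CPM there, with a median of 6671, and took 0.625% to 0.688% of all counts. A101D libraries held 183 to 249 CPM with a median of 228. The mean levels differed 29.8-fold (log2 difference 4.91 ± 0.06 SE, limma-voom adjusted p = 3.07e-20). CDK2, a cell cycle kinase gene on the opposite strand, covers 2.28% of the PMEL exon bases. Mean CDK2 levels were 88.3 CPM (A101D) and 544 CPM (MeWo), a log2 difference of 2.73, and the part of shared reads in either value was not tested.

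MLANA (ENSG00000120215, chr9:5890802-5910606), a small melanosomal membrane protein and melanoma antigen that interacts with PMEL, was detected in both lines. A101D libraries spanned 16.6 to 35.9 CPM, median 21.2, and MeWo libraries 155 to 185 CPM, median 177. The fold of the means was 7.40, well under that of PMEL (log2 difference 2.94 ± 0.13 SE, adjusted p = 5.74e-13). The ratio of PMEL to MLANA per kb was 5.03 to 11.4 in A101D libraries and 28.3 to 31.8 in MeWo libraries.

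The ion transport genes fell into a pair of low-count genes and 1 moderate gene in A101D. OCA2 (ENSG00000104044, chr15:27754875-28099358), an anion channel component that raises melanosomal pH, held 8 to 33 counts per A101D library, with a median of 0.445 CPM and at most 1.02 CPM. MeWo libraries ran from 84.0 to 95.5 CPM, median 91.8. The ratio of summed counts was 175, with an exact 95% interval of 148 to 207 (log2 difference 7.55 ± 0.19 SE, limma-voom adjusted p = 1.88e-16). OCA2 reached the filter level in 6 A101D libraries and needed MeWo to pass, so its p-value is not used as support.

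SLC24A5 (ENSG00000188467, chr15:48120972-48142672), a potassium-dependent sodium-calcium exchanger, was the lowest of the 10 in both lines. A101D libraries held 0 to 8 counts, 32 in all, at 0 to 0.221 CPM. The library with no count, replicate 3, allows up to 3 counts or 0.107 CPM. MeWo libraries ranged from 13.7 to 16.5 CPM, median 15.6. The ratio of summed counts was 132, with an exact 95% interval of 93.2 to 193 (counting error only). MYEF2 on the opposite strand covers 32.9% of the SLC24A5 exon bases, and the strand setting of the counting is not given in the sources used here. Mean MYEF2 levels were 9.55 CPM (A101D) and 17.7 CPM (MeWo), a smaller difference (log2 0.88), and its part in the SLC24A5 counts was not tested.

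SLC45A2 (ENSG00000164175, chr5:33944616-33984730), a proton-coupled transporter of the melanosome, was the transport gene with appreciable counts in A101D. It ran from 31.8 to 45.6 CPM there, median 36.0. MeWo libraries spanned 255 to 290 CPM, median 268. The fold of the means was 7.21, the smallest among the 9 genes higher in MeWo (log2 difference 2.86 ± 0.08 SE, limma-voom adjusted p = 5.01e-16).

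GPR143 (ENSG00000101850, chrX:9725346-9786297), the ocular albinism receptor of the melanosome membrane, ran from 0.606 to 1.20 CPM in A101D, median 0.784. In MeWo it ran from 15.4 to 18.5 CPM, median 17.8. The fold of the means was 21.0 (log2 difference 4.39 ± 0.10 SE, adjusted p = 1.28e-16). The overlapping gene TBL1X shares 0% of its exon bases.

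TRPM1 (ENSG00000134160, chr15:31001061-31161273) encodes a cation channel of melanocytes and retinal bipolar cells, and its intron holds the microRNA gene MIR211. A101D libraries ran from 0.308 to 2.97 CPM, median 1.40, and MeWo libraries from 77.6 to 86.2 CPM, median 80.0. The log2 difference was 6.10 ± 0.32 (SE, adjusted p = 8.48e-12), and the fold of the means was 50.3. An antisense gene, ENSG00000259720, covers 4.48% of the TRPM1 exon bases and had at most 3.59 CPM in any library.

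The MIR211 locus itself drew 2 counts over the 8 A101D libraries and 314 over the 8 MeWo libraries. That ratio was 158 with an exact 95% interval of 43.3 to 1308. Reads over the locus in total RNA libraries can be host intron or precursor, and they do not measure the mature microRNA. Its mature 5′ arm (RefSeq, GRCh38.p14) is shown because TRPM1 is its host. The seed, bases 2 to 8, is in capitals.
hsa-miR-211-5p (chr15:31065095-31065116, - strand): uUCCCUUUgucauccuucgccu

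Read as an order of levels per kb of exon, with the same limit of exon length, the lines ranked the genes differently. In A101D, DCT led at 198 CPM per kb, followed by PMEL at 57.1, SLC45A2 at 11.6 and MLANA at 7.66. The libraries of SLC45A2 and MLANA overlapped in that order. TYR (0.505 CPM per kb), GPR143 (0.337), TYRP1 (0.244), TRPM1 (0.215) and OCA2 (0.160) came next, each overlapping its neighbour, and SLC24A5 was last at 0.0242. In MeWo, PMEL led at 1703 CPM per kb, followed by TYRP1 at 631, TYR at 98.9, SLC45A2 at 83.5, DCT at 66.8, MLANA at 56.7, OCA2 at 27.6, TRPM1 at 10.8, GPR143 at 7.10 and SLC24A5 at 3.23. There, DCT and MLANA were the neighbours whose libraries overlapped.

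The difference between the lines was then taken within each range of replicate numbers. Within replicates 1-4 and within replicates 5-8, the same 9 genes were higher in MeWo and DCT was lower, with SLC24A5 counted by direction only. Of all tested genes, 81.5% and 85.3% passed the test in these ranges. TYRP1 had log2 differences of 12.51 ± 0.28 and 10.77 ± 0.16 (SE) in the 2 ranges. TRPM1 had 4.88 ± 0.11 and 7.27 ± 0.21. OCA2 (8.0 and 7.1), SLC24A5 (7.79 and 6.66) and MLANA (2.56 and 3.31) also moved by over 1.5 times in fold between the ranges. DCT had -1.76 ± 0.09 and -1.36 ± 0.09, and PMEL had 5.01 ± 0.04 and 4.80 ± 0.04.

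**Figure D3:**
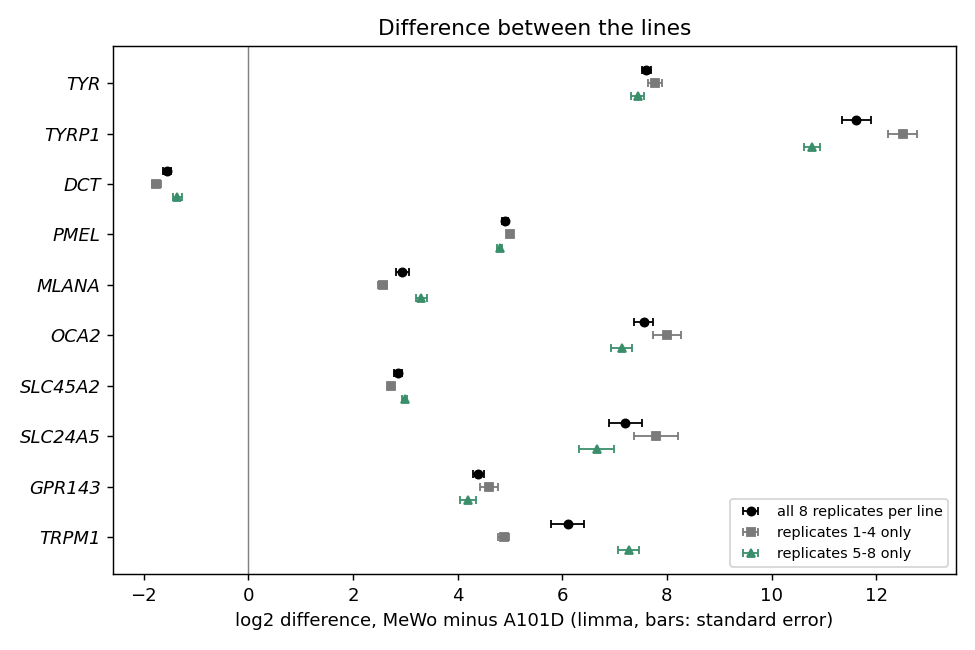
Log2 difference between the lines (MeWo minus A101D) with its standard error from limma for the 10 genes, over all 8 replicates per line (black circles), replicates 1-4 (grey squares) and replicates 5-8 (green triangles). DCT alone lies below 0, and TYRP1 and TRPM1 show wide gaps between the ranges.

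In A101D, the libraries numbered 5-8 were compared with those numbered 1-4. Of all tested genes, 68.0% passed the test, 33.6% higher and 34.4% lower in replicates 5-8. Of the 10 genes, TYRP1, PMEL, OCA2 and SLC24A5 were called higher, and DCT, MLANA, SLC45A2 and TRPM1 were called lower. That share is near the background. The 10 genes did not move together. Several markers of other cell types and library measures moved between the same ranges without overlap, as did the levels of 62.3% of all tested genes. Within the fibroblast and retinal pigment epithelium lists, the markers did not all move alike. Mean COL1A2 was 956 CPM in replicates 1-4 and 601 CPM in replicates 5-8, whereas PDGFRA rose (1.22 and 1.86 CPM). RLBP1 (9.23 and 16.3 CPM) and RRH (0.189 and 0.594 CPM) rose while RPE65 fell (5.59 and 2.07 CPM). KRT14 (0.594 and 1.95 CPM) and KRT10 (34.6 and 39.2 CPM) rose. LUM, COL1A1 and BEST1 overlapped between the ranges. VWF ran from 3.10 to 4.25 CPM and then from 14.2 to 17.9 CPM. The other endothelial markers, PECAM1 (means of 0.195 and 0.509 CPM) and CDH5 (0.377 and 1.10 CPM), also rose. Of the melanocytic markers, ERBB3 rose (484 and 744 CPM). S100B (681 and 540 CPM), MITF (216 and 149 CPM) and PAX3 (58.8 and 47.6 CPM) fell, and SOX10 overlapped. Genes with a count numbered 31281 to 33107 in the first range and 34020 to 34607 in the second. Mitochondrial genes held 1.71% to 1.92% and 1.93% to 2.33% of the counts. The part of these in the differences was not tested.

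TRPM1 fell furthest. Its levels were 2.92, 2.97, 2.03 and 2.73 CPM in replicates 1 to 4 and 0.308, 0.663, 0.438 and 0.773 CPM in replicates 5 to 8. The ranges did not overlap, and the fall was 2.32 ± 0.23 on the log2 scale (a log2 difference of -2.32, SE, limma-voom adjusted p = 2.02e-11). The counts behind it were 356 and 78 in all.

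MLANA stood at 30.8, 35.9, 23.5 and 27.6 CPM in replicates 1 to 4 and at 16.6, 18.3, 17.5 and 18.8 CPM in replicates 5 to 8. Every library of the second range lay below the first (log2 difference -0.72 ± 0.11 SE, adjusted p = 2.92e-05). SLC45A2 was at 45.6, 44.4, 36.8 and 43.5 CPM, then at 31.8, 32.5, 32.9 and 35.2 CPM. These did not overlap either (log2 difference -0.37 ± 0.06, adjusted p = 4.7e-07).

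DCT read 1691, 1887, 1420 and 1605 CPM in the first range and 1255, 1364, 1356 and 1397 CPM in the second. The lowest library of the first range was only just above the highest of the second (log2 difference -0.29 ± 0.08 SE, adjusted p = 0.0059).

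TYRP1 moved the other way. Replicates 1 to 4 held 13, 21, 7 and 11 counts, or 0.339, 0.656, 0.249 and 0.327 CPM. Replicates 5 to 8 held 57, 61, 44 and 39 counts, or 1.75, 1.62, 1.29 and 1.08 CPM. All of the second range lay above the first, with a log2 difference of 1.88 ± 0.32 (SE, adjusted p = 3.75e-06). Even the highest A101D level of TYRP1 was far below the lowest MeWo level of 2062 CPM.

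PMEL was at 208, 229, 183 and 196 CPM in replicates 1 to 4 and at 240, 249, 248 and 228 CPM in replicates 5 to 8. The ranges overlapped slightly, and the difference passed the test (log2 difference 0.24 ± 0.05 SE, adjusted p = 5.01e-05). As PMEL rose and MLANA fell, their ratio per kb was 5.03 to 6.17 in the first range and 9.58 to 11.4 in the second.

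OCA2 had 0.287, 0.25, 0.534 and 0.357 CPM, then 1.02, 0.345, 0.789 and 0.635 CPM, from 46 and 96 counts. The ranges overlapped (log2 difference 0.89 ± 0.33 SE, adjusted p = 0.016), and without replicate 5 the call was lost (0.70, adjusted p = 0.0629). SLC24A5 rested on 11 and 21 counts. Its log2 difference was 1.24 ± 0.53 (SE, adjusted p = 0.0379). The call was lost without replicate 1 (adjusted p = 0.053), without replicate 3, the library with no count (log2 0.65, adjusted p = 0.244), and without replicate 8 (adjusted p = 0.0862). With TMM factors taken over all genes it was also lost (adjusted p = 0.0522).

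TYR and GPR143 did not pass the test in A101D. TYR had 1.31, 1.53, 1.10 and 1.60 CPM, then 1.42, 1.72, 1.75 and 1.74 CPM, and these overlapped (log2 difference 0.26 ± 0.18 SE, adjusted p = 0.205). GPR143 had 0.705, 0.749, 0.606 and 0.772 CPM, then 0.893, 0.795, 1.20 and 0.993 CPM, from 94 and 136 counts. Its ranges did not overlap, although the test did not call it (log2 difference 0.42 ± 0.22 SE, adjusted p = 0.0926), and both genes were called with limma-trend. The share of all tested genes without overlap between the A101D ranges was 62.3%.

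**Figure D4:**
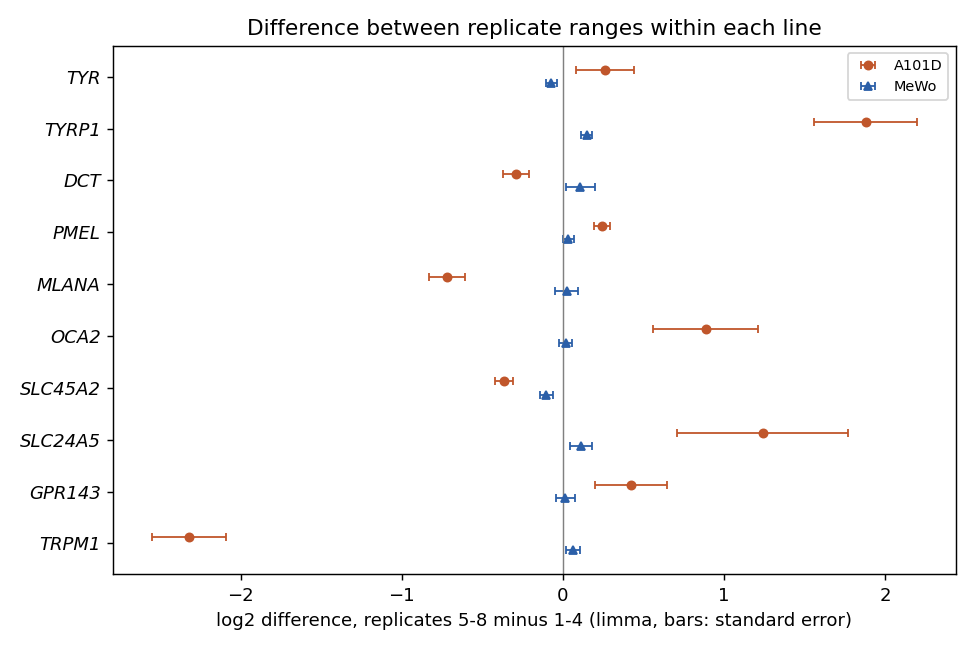
Log2 difference between replicates 5-8 and 1-4 with its standard error from limma, for the 10 genes in A101D (orange circles) and MeWo (blue triangles). A101D values run from -2.32 for TRPM1 to 1.88 for TYRP1, while MeWo values lie between -0.10 and 0.15.

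In MeWo, 15.6% of all tested genes passed the same test, 7.28% higher in replicates 5-8, and TYRP1 was the one called among the 10. It stood at 2285, 2354, 2270 and 2062 CPM in replicates 1 to 4 and at 2397, 2603, 2464 and 2461 CPM in replicates 5 to 8. The ranges did not overlap, as for 18.2% of all tested genes. The log2 difference was small, 0.15 ± 0.03 (SE, limma-voom adjusted p = 0.00215), and was not called with limma-trend (adjusted p = 0.727). The other 9 genes had log2 differences from -0.10 for SLC45A2 to 0.11 for SLC24A5. Of these, MLANA, OCA2 and GPR143 changed sign with median-of-ratios scaling, which also moved the share of MeWo calls that were higher from 46.7% to 33.8%. Total counts moved that share to 66.7% and TMM factors over all genes to 35.4%.

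TYR in MeWo read 317, 317, 306 and 283 CPM, then 297, 292, 282 and 293 CPM. That overlap came with replicate 4, the lowest of its range. Without replicate 4, TYR (log2 difference -0.11, adjusted p = 0.0144) and SLC45A2 (-0.14, adjusted p = 0.0074) were called lower. Within each MeWo library, the ratio of TYRP1 to TYR per kb was 5.80 to 5.99 in replicates 1-4 and 6.51 to 7.19 in replicates 5-8.

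Whether the lines differed in this contrast was tested as an interaction. It was called for 52.7% of all tested genes and for 7 of the 10 genes. The difference (MeWo minus A101D) was 2.39 ± 0.23 for TRPM1 (SE, limma-voom adjusted p = 3.66e-11), -1.73 ± 0.32 for TYRP1 (adjusted p = 2.38e-05) and 0.74 ± 0.13 for MLANA (adjusted p = 0.000179). It was smaller for SLC45A2 (0.27, adjusted p = 0.00132), PMEL (-0.21, adjusted p = 0.00362) and DCT (0.40, adjusted p = 0.0128). For OCA2 (-0.87, adjusted p = 0.0248) the call was lost without A101D replicate 1, 2, 5 or 7, with the difference then between -0.79 and -0.67. TYR, SLC24A5 and GPR143 did not pass. SLC24A5 passed without A101D replicate 2 (-1.73, adjusted p = 0.00423).

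The rest of the pigment pathway was read from 4 lists with 50 genes, of which 47 were tested. Between the lines, 31 were higher and 9 lower in MeWo, with a median log2 difference of 0.31 beside -0.02 over all tested genes, of which 38.6% were higher and 40.4% lower. In A101D, 12 were higher and 24 lower in replicates 5-8, with a median of -0.17 beside -0.01 over all tested genes, of which 33.6% were higher and 34.4% lower.

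Of 10 transcription factors, 6 were higher and 3 lower in MeWo, where 79.0% of all tested genes were called. MITF, the master regulator of the melanocyte lineage, ran from 142 to 238 CPM over the A101D libraries and from 514 to 597 CPM over those of MeWo (log2 difference 1.64 ± 0.10 SE, adjusted p = 6.6e-11). It fell in A101D replicates 5-8 by 0.53 on the log2 scale (log2 difference -0.53, limma-voom adjusted p = 1.09e-08). That was the direction of TRPM1, MLANA, SLC45A2 and DCT and the opposite of TYRP1, PMEL, OCA2 and SLC24A5. The calls of OCA2 and SLC24A5 were lost without some single libraries. SOX10, which acts with MITF on pigment genes, differed less between the lines (355 to 408 and 432 to 482 CPM, log2 difference 0.28), as did PAX3 (0.19). PAX3 was not called within replicates 1-4 (0.02, adjusted p = 0.714).

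TFAP2A, a neural crest factor, was higher in MeWo (log2 difference 1.20). LEF1, a mediator of Wnt signals, was lower (-0.46). IRF4, which takes part in TYR regulation, was the furthest below, with mean levels of 53.5 CPM (A101D) and 2.89 CPM (MeWo), a log2 difference of -4.23 ± 0.14 (SE, adjusted p = 1.46e-14). Like DCT, IRF4 was thus higher in A101D.

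Among 7 receptors and ligands, 4 were tested, with 3 higher and 1 lower in MeWo. Of all tested genes, 79.0% were called, 38.6% higher and 40.4% lower. KIT, the receptor for stem cell factor, had mean levels of 0.246 CPM (A101D) and 78.9 CPM (MeWo), a log2 difference of 8.30 ± 0.15 (SE). A101D libraries held 0.159 to 0.392 CPM, 66 counts in all, so KIT passed the filter through MeWo. Its call was thus largely set by the filter, and no test is given for it. KIT is counted above by direction only. Its ligand gene KITLG was higher as well (1.63). MC1R, the receptor for melanocyte-stimulating hormone, was also higher (1.33). The endothelin receptor EDNRB was slightly lower (-0.33). That call was lost within replicates 5-8 (-0.04, adjusted p = 0.522), beside -0.63 within replicates 1-4.

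Of 28 genes of melanosome biogenesis and movement, 18 were higher and 4 lower in MeWo, with a median log2 difference of 0.32. The share called is that of all tested genes, 79.0%. RAB32, a small GTPase that delivers enzymes to melanosomes, had mean levels of 27.3 CPM (A101D) and 197 CPM (MeWo), a log2 difference of 2.85 ± 0.06 (SE, adjusted p = 3.3e-17). MLPH and RAB27A, which link melanosomes to the actin motor, were higher by 2.08 and 1.33 on the log2 scale. HPS5 (-1.21) and VPS33A (-0.48), of complexes that sort cargo to lysosome-related organelles, were lower.

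Of 5 further genes of melanosome ion and amino acid transport, 4 were higher and 1 lower in MeWo. The share called over all tested genes was 79.0%, with 38.6% higher and 40.4% lower. TPCN2, a cation channel of the melanosome, had 19.6 and 157 CPM on average in A101D and MeWo (log2 difference 3.05 ± 0.14 SE, adjusted p = 8.76e-13). MCOLN3 was lower (-0.59). SLC7A11, the cystine transporter used for pheomelanin, was higher in MeWo over all libraries (2.19 ± 0.44 SE, adjusted p = 0.000206), by 3.53 within replicates 1-4 and 0.87 within replicates 5-8. In A101D its level rose in replicates 5-8 by a log2 difference of 2.56 ± 0.05 (SE, adjusted p = 1.39e-29), more than that of any of the 10 pigment genes.

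Finally, genes with the most similar profile were listed for each of the 10 genes with a mean of at least 10 CPM, over the 8 libraries of a line, by Pearson correlation of log2 CPM. The 3 highest were taken in each line as a description. In MeWo the 10 genes had correlations of 0.944 to 0.992 with their 3 genes, and none of those was another of the 10. TYR was nearest to AZIN1 (r = 0.991), TYRP1 to BCL10 (0.988), DCT to PPP1CB (0.992), PMEL to VAT1 (0.973) and MLANA to PPIC (0.98). OCA2 was nearest to TMCO1 (0.972) and then to EDNRB (0.97), SLC45A2 to RNF114 (0.975), SLC24A5 to LAMA4 (0.971), GPR143 to MTURN (0.991) and TRPM1 to MTAP (0.984). In A101D, 4 genes were abundant enough, with correlations of 0.978 to 0.995. DCT was nearest to ZNF106 (0.988), PMEL to MRPS30 (0.99), MLANA to SLC5A4 (0.995) and SLC45A2 to OAF (0.985). Each was taken as the highest of 10106 candidates in A101D and of 9651 in MeWo. How far the A101D values follow the difference between the ranges of replicate numbers was not tested.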

How the data were processed

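RNA-seq libraries came from a stranded kit for total RNA, per the labels' protocols. Per the submitters' processing notes, the tools were Trimmomatic 0.39-1, STAR 2.7.1a and featureCounts 2.0.0, with the build GRCh38. The authors deposited 1 table per line of whole-number counts per Ensembl gene, not normalized. Each cell joins an identifier and its count, and these were separated before use. Symbols were matched for 60357 of 60676 identifiers, and GENCODE 29 gave positions and exon lengths (58503 identifiers). The strand setting is not given in the sources used here. Because of the joined cells, the columns did not pass as plain counts, and limma was used in place of a count model.

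Genes needed 0.298 CPM (10 counts at the median depth) in 8 libraries and 15 counts in all. TMM factors used trims of 30% and 5%. A first fit took them over all genes. After its results had been seen, the gene set was changed to those past the filter, and both versions are given among the alternatives. Differences were fitted in R 4.3.3 using limma 3.58.1 (voom weights, robust empirical Bayes moderation and Benjamini-Hochberg adjustment over 19247 genes, threshold 0.05). A second model had 4 groups, line by range of replicate number, with 4 libraries each. The fit was tested on simulated data. Similarity used log2 CPM with a prior count of 2.

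The 10 genes and the gene lists were chosen with earlier results of these data known. One further melanocytic marker is not reported here. Named pathway genes were MITF, SOX10, PAX3, MC1R, RAB27A and, per list, up to 2 called genes with the largest and 2 with the smallest log2 difference between lines. Other settings tried were scaling (upper-quartile, median-of-ratios, total counts), the filter (none, or 1 CPM), limma-trend, an adjusted p of 0.01, a 2-fold null (treat), replicate number as a block, and single libraries left out. Intervals for ratios of summed counts are exact and, like the floor of 3 counts, cover counting error only.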

Additional observations from a re-analysis of the deposited data

Results flagged for a closer look

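For 7 of the 10 genes, the difference between replicates 5-8 and 1-4 was not the same in the 2 lines by a test of the interaction (limma-voom, adjusted over all tested genes, of which 52.7% passed). The interaction, MeWo minus A101D on the log2 scale, was 2.39 for TRPM1, -1.73 for TYRP1, -0.87 for OCA2, 0.74 for MLANA, 0.40 for DCT, 0.27 for SLC45A2 and -0.21 for PMEL. In each, the larger difference was the one in A101D.

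By a check for outliers, a single library stood apart for 1 gene. GPR143 was at 15.4 CPM in MeWo replicate 4, and the gap to the next library was 0.662 of the whole range of the 8 libraries, while the others lay at 17.5 to 18.5 CPM. That library was also the lowest of the 8 for TYRP1 (2062 CPM), DCT (422), PMEL (6242), MLANA (155), OCA2 (84.0) and SLC24A5 (13.7). It was not the lowest for TYR, SLC45A2 and TRPM1. The check covered 20 groups of libraries, and chance alone marks about 1 in 20.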

How the results depend on the processing

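Between the lines, all 10 genes kept their direction and their call under the alternatives run that tested them. Where the low-count filter was used, the call of SLC24A5 had to hold. Without any 1 MeWo library, SLC24A5 was under the filter and not tested, so 8 of the 10 were then called higher, and 8 to 9 over all single libraries left out. With the replicate block, 9 of the 10 genes were higher and 1 lower (15332 genes called in all), and the block changed no call of the 10 genes in the interaction either. Same-numbered libraries correlated by 0.052 to 0.174 in their deviations from the line means, with replicate 5 below 0.1. Each A101D library correlated best with a MeWo library of its own range, but only 1 and 6 with their own number. These deviations also hold any difference between the ranges. In deviations from the means of each line and range, same-numbered libraries correlated by -0.029 to 0.093. The numbers were not taken as pairs. Against a 2-fold change, 5036 genes were called between the lines. Without a low-count filter, voom called 0 of the 10 genes higher in A101D replicates 5-8, and 2 higher and 0 lower in the interaction. The residual variance of PMEL was then 101300, beside a median of 0.91 over all genes, but OCA2 (1.53) and SLC24A5 (1.07) also lost their A101D calls, and the cause was not tested. Within replicates 1-4, TYRP1 (adjusted p = 0.186) and PMEL (0.454) then lost their calls, as did PMEL within replicates 5-8 (0.388). Limma-trend, with the filter or without it, called 0 of the 10 genes higher in MeWo replicates 5-8.

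In A101D, GPR143 was called with total counts (0.51, adjusted p = 0.0353), and SLC24A5 lost its call with upper-quartile factors over all genes (adjusted p = 0.0615), as did PMEL in the interaction (adjusted p = 0.065). Further changes were seen in small differences in MeWo. Under median-of-ratios factors, MLANA (-2e-04), OCA2 (-0.0086) and GPR143 (-0.0088) changed sign. Under TMM factors over all genes, the version fitted first, OCA2 (-0.0044) and GPR143 (-0.0043) did. Upper-quartile factors over all genes, an alternative added after seeing the data, shifted the median of all genes by 0.50 between the lines and moved the share of higher calls from 48.8% to 69.4% there, from 49.4% to 39.3% between the ranges in A101D and from 46.7% to 19.1% in MeWo. Under them, 0 of the 10 genes were higher and 1 lower in MeWo, PMEL (-0.033), MLANA (-0.0409), OCA2 (-0.0496), GPR143 (-0.0477) and TRPM1 (-0.0037) changed sign, and 2 other pathway genes were lower between the lines. Leaving out single libraries gave 0 to 2 of the 10 genes lower in MeWo, and differences of -0.0292 to 0.0577 for MLANA, -0.0191 to 0.0438 for OCA2 and -0.0472 to 0.0423 for GPR143, with the negative ends without replicate 4. The cause of these changes was not tested. Depth limits SLC24A5, OCA2, GPR143 and TYRP1 in A101D, with 32, 142, 230 and 253 counts in all.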
